A study of Mus musculus with 87 samples.

Results

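Fabp7, Hes5, Rfx4, Nes, Sox1, Sox3 and Slc1a3 are genes of the neural progenitor, the dividing cell of the neural tube, and of its later form, the radial glial cell. They are 7 of the 26171 gene symbols in each of 13 deposited comparison tables from a mouse study of Suz12, a core subunit of the histone methyltransferase complex PRC2, whose exon 4 can be spliced in (long isoform) or out (short isoform). The genes were listed by name for their role, with their low levels in Suz12 knock-out precursors already known. The knock-out against wild-type values are therefore given below as a description, with no test.

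RNA was sequenced in 32 of the 87 samples, all from the 129-B13 mouse embryonic stem cell (ESC) line, either grown in serum with LIF (18 samples, 8 groups) or turned into neural precursors (NP; 14 samples, 6 groups). For NP, embryoid bodies were exposed to retinoic acid from day 4 and collected on day 8. WT is the parental genotype (4 NP and 3 ESC samples). CSex4 carries exon 4 constitutively, Deltaex4 has exon 4 deleted, and KO has lost Suz12 (2 NP and 3 ESC samples). KO-L and KO-S are the KO line given back the long or the short isoform, and KO-L3D and KO-S3D, made in ESC only, are the same rescues with the 3D mutation; all of these had 2 samples in each cell state in which they were made. All rescues thus carry the knock-out background. The labels do not say whether the samples of a group are separate cultures or clones, so p-values measure only the spread between these samples, which may be technical.

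As background, neural progenitors are kept in cycle by Notch signalling between neighbours. Delta and Jagged ligands on one cell activate Notch receptors on the next, the cleaved receptor joins the DNA-binding protein RBPJ, and the pair switches on repressors of the Hes and Hey families, which hold back neuronal genes. Hes5 is the Hes repressor most tied to this state in the neural tube. Sox1 and Sox3 are SoxB1 transcription factors of the early neuroectoderm, Rfx4 is an RFX-domain transcription factor of the neural tube, Nes encodes nestin, the intermediate filament of progenitors, Fabp7 encodes the brain lipid-binding protein of radial glia, and Slc1a3 encodes the glial glutamate transporter GLAST. PRC2 places H3K27me3, a repressive histone mark found over many developmental genes in ESC.

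RefSeq's GRCm38.p6 promoter table matched 6 of the 7 genes. The 250 bases upstream of the start site are shown for a pair of genes covered by deposited H3K27me3 and Suz12 regions, Hes5 (chr4:154960673-154960922, plus strand) and Sox1 (chr8:12395269-12395518, plus strand), and a pair without a region, Fabp7 (chr10:57784673-57784922, plus strand) and Slc1a3 (chr15:8710808-8711057, minus strand). The Hes5 start site used (154960923) lies inside the RefSeq gene span, which begins at 154960626, so the Hes5 stretch lies within that span. Capitals mark the RBPJ core TGGGAA or its reverse complement TTCCCA.
Hes5: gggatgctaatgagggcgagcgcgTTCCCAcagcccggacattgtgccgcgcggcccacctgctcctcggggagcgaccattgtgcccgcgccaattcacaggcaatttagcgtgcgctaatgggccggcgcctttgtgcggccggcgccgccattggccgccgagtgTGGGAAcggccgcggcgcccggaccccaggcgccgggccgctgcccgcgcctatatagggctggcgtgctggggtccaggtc
Sox1: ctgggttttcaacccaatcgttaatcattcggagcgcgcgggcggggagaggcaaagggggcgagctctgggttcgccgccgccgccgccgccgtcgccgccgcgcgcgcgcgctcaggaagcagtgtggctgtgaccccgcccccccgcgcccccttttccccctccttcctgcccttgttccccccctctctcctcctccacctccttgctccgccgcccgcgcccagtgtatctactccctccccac
Fabp7: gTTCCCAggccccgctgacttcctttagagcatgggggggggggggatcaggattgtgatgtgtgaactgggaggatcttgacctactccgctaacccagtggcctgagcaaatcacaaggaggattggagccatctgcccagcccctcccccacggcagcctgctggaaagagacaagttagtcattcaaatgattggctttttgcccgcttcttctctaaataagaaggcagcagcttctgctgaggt
Slc1a3: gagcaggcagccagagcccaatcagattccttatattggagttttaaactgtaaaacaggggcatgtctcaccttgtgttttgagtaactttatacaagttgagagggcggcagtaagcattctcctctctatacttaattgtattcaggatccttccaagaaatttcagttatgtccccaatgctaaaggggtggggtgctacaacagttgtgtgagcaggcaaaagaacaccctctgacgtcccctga

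The Hes5 stretch held 32 CpG dinucleotides, more than 95.4% of the 32851 RefSeq promoters searched, and the Sox1 stretch held 29, more than 93.2% of them. Fabp7 held 4 and Slc1a3 held 2, against a median of 6. Nes held 15, and Rfx4 held 15 at its upstream start site and 2 at its downstream one. TGGGAA or its reverse complement, which occurs on either strand in 21.6% of all promoters, was found at 2 places in Hes5 (-226 to -221 and -82 to -77 from the start site) and at 1 place in Fabp7 (-249 to -244), and not in the other stretches. The SOX core AACAAT, searched on both strands and present in 9.42% of promoters, was not in any of the members' stretches. The motifs do not overlap each other, and a match describes letters only.

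The deposited ESC region lists, on mm10, held 6882 H3K27me3 regions and 2865 Suz12 regions. Hes5, Rfx4, Nes and Sox1, 4 of the 6 genes with a start site in the reference, had that site covered by a region of both lists. Among 17492 protein-coding genes the share covered was 14.4% for H3K27me3 and 8.54% for Suz12. At Sox1, a single-exon gene, the Suz12 region ran over chr8:12382921-12403317, past both ends of the gene (chr8:12395519-12399555), and ranked 80 of 2865 by the list's value. At Rfx4 (chr10:84756036-84906538) an H3K27me3 region at chr10:84751108-84767130 covered the upstream start and 3 further regions lay inside the gene. At Nes (chr3:87971093-87980451) the H3K27me3 regions chr3:87967486-87974478 and chr3:87975022-87984868 covered most of the gene, and at Hes5 (chr4:154960626-154962372) the region chr4:154958394-154964071 covered all of it. The Sox3 gene (chrX:60891366-60893430), which has no start-site entry, lay inside an H3K27me3 region (chrX:60889961-60896448) and a Suz12 region (chrX:60889950-60896408). No region of either list touched Fabp7 (chr10:57784923-57788450) or Slc1a3 (chr15:8634124-8710807). The lists are named for WT, and what their value column compares is not stated, so they are used for position and rank only.

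Each deposited table gives a mean normalised count, a log2 fold change with its standard error (SE) and an adjusted p per gene, not a count per sample. Whole reads per library were recovered from the means (see the processing section), and levels below are these reads divided by the library's size factor, on a scale shared by the 14 NP libraries and a separate one for ESC. NP libraries held 14765088 to 29706578 recovered reads. Genes with a mean above 10000 in any NP table were not tried, and the recovered genes held 62.9% to 64.4% of the summed mean signal. The totals are thus not the full depth, and shares of all genes in fits to these reads leave out the most expressed genes. Libraries are lettered within a group, and the letters have no tie to the labels' replicate numbers. The 4 WT libraries form 2 pairs: pair 1 served the CSex4, Deltaex4 and KO against WT tables and pair 2 the WT against KO table. The Suz12 transcript was at 1198 and 1245 normalised reads in KO against 3111 to 5761 in WT, 3293 and 2951 with KO-L, and 2956 and 2277 with KO-S. In the authors' deposited tables Suz12 changed by -2.14 ± 0.33 in KO against WT, 1.35 ± 0.21 in KO-L against KO and 1.09 ± 0.20 in KO-S against KO (log2 ± SE), in the direction of the labels. In CSex4 it was at 8432 and 9052 normalised reads, above every WT library, and in Deltaex4 at 4011 and 3096. The authors' deposited tables gave 0.70 ± 0.30 (adjusted p = 0.193) and -0.61 ± 0.33 (adjusted p = 1.00) for these 2 lines.

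Library a of WT pair 1 was the lowest of the 4 WT libraries for 5 of the 7 genes. Its gap to the next, as a part of the whole WT range, was 0.857 for Nes, the 1 gene past Dixon's critical value, 0.759 for Fabp7, 0.715 for Sox3 and 0.697 for Rfx4. For Hes5 it was 0.352, library b of the same pair (1120 normalised reads) also lying below pair 2 (2144 and 2125). The median of the others was 5.85 times its level for Fabp7, 3.77 times for Hes5, 3.79 times for Rfx4, 2.29 times for Nes and 2.67 times for Sox3. For Sox1 (0.946) and Slc1a3 (0.971) it lay among them. Its summed reads of pluripotency markers (8 of 9 listed genes with reads recovered) were 9694, against 2145 to 3874 in the other WT libraries. Its 7 endoderm markers summed to 27582, against 4218 to 16665, and its neuron markers (8 of 9) to 7347, against 34240 to 39926. The part of these cells in its low values was not tested. Results against WT in the fit to recovered reads are given with and without library a. Each percent of the WT mean below is over all 4 WT libraries and so includes it.

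**Figure D1:**
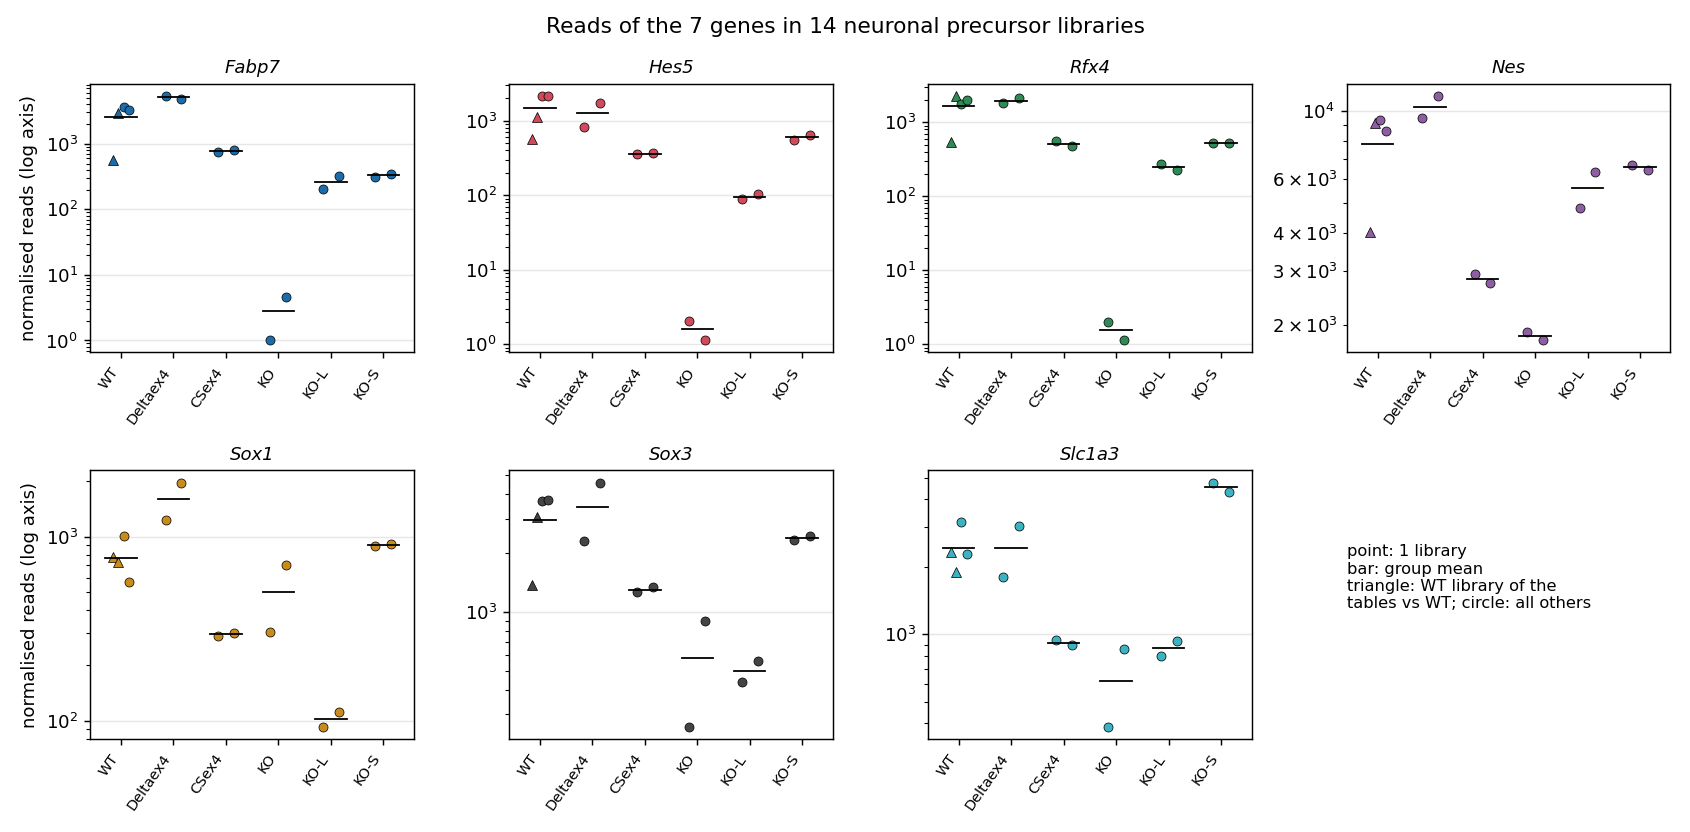
Normalised reads (log axis) of the 7 genes in each of the 14 neural precursor libraries, by group; each mark is a library, and triangles are the WT pair used in the tables against WT. Fabp7, Hes5 and Rfx4 lie at 1.0 to 4.5 normalised reads in KO, and 1 WT triangle lies below the other WT marks for these genes.

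Fabp7, the radial glial fatty acid-binding protein, was nearly absent from KO precursors. Its levels were 563 and 2908 normalised reads in WT pair 1, 3652 and 3293 in pair 2, and 1.0 and 4.5 in KO, from 1 and 4 reads. Every WT library was above every KO library. The authors' deposited tables gave -8.94 ± 0.85 for KO against WT and 10.34 ± 0.74 for WT against KO, which use different WT pairs and the same 2 KO libraries.

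Hes5, the Notch effector, and Rfx4 were at the same floor. Hes5 stood at 564 and 1120 normalised reads in WT pair 1, 2144 and 2125 in pair 2, and 2.0 and 1.1 in KO, from 2 and 1 reads. Rfx4 stood at 533 and 2274, 1746 and 2020, and 2.0 and 1.1, again from 2 and 1 KO reads. Neither gene's groups overlapped. Over the 2 tables the authors' deposited fold changes were -9.06 ± 0.95 and 10.38 ± 0.89 for Hes5 and -9.76 ± 0.95 and 10.19 ± 0.90 for Rfx4.

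The other 4 genes kept transcript in KO. Nes, the progenitor filament, was at 4008 and 9161 normalised reads in WT pair 1, 9399 and 8627 in pair 2, and 1884 and 1778 in KO. Sox3 was at 1378, 3061, 3674 and 3730 in WT and 259 and 903 in KO. Slc1a3 was at 2340, 1897, 3173 and 2271 in WT and 386 and 855 in KO. For these 3 genes no KO library reached a WT library, and the authors' deposited tables gave -1.73 ± 0.37 and 2.30 ± 0.26 for Nes, -2.08 ± 0.54 and 2.93 ± 0.38 for Sox3, and -1.87 ± 0.39 and 2.22 ± 0.37 for Slc1a3.

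Sox1 was the exception. Its WT levels were 776, 733, 1006 and 566 normalised reads and its KO levels 302 and 703, so the groups overlapped. The authors' deposited values were -0.71 ± 0.43 and 0.71 ± 0.44, neither called. In all, 6 of the 7 genes were called lower in KO against WT, where 21.4% of all genes were called (9.85% lower), and 6 were called higher in WT against KO, where 32.9% were called (15.6% higher). These tables chose the genes, so nothing is read from the counts. In bulk RNA, fewer cells of a type and less RNA per cell cannot be told apart.

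**Figure D2:**
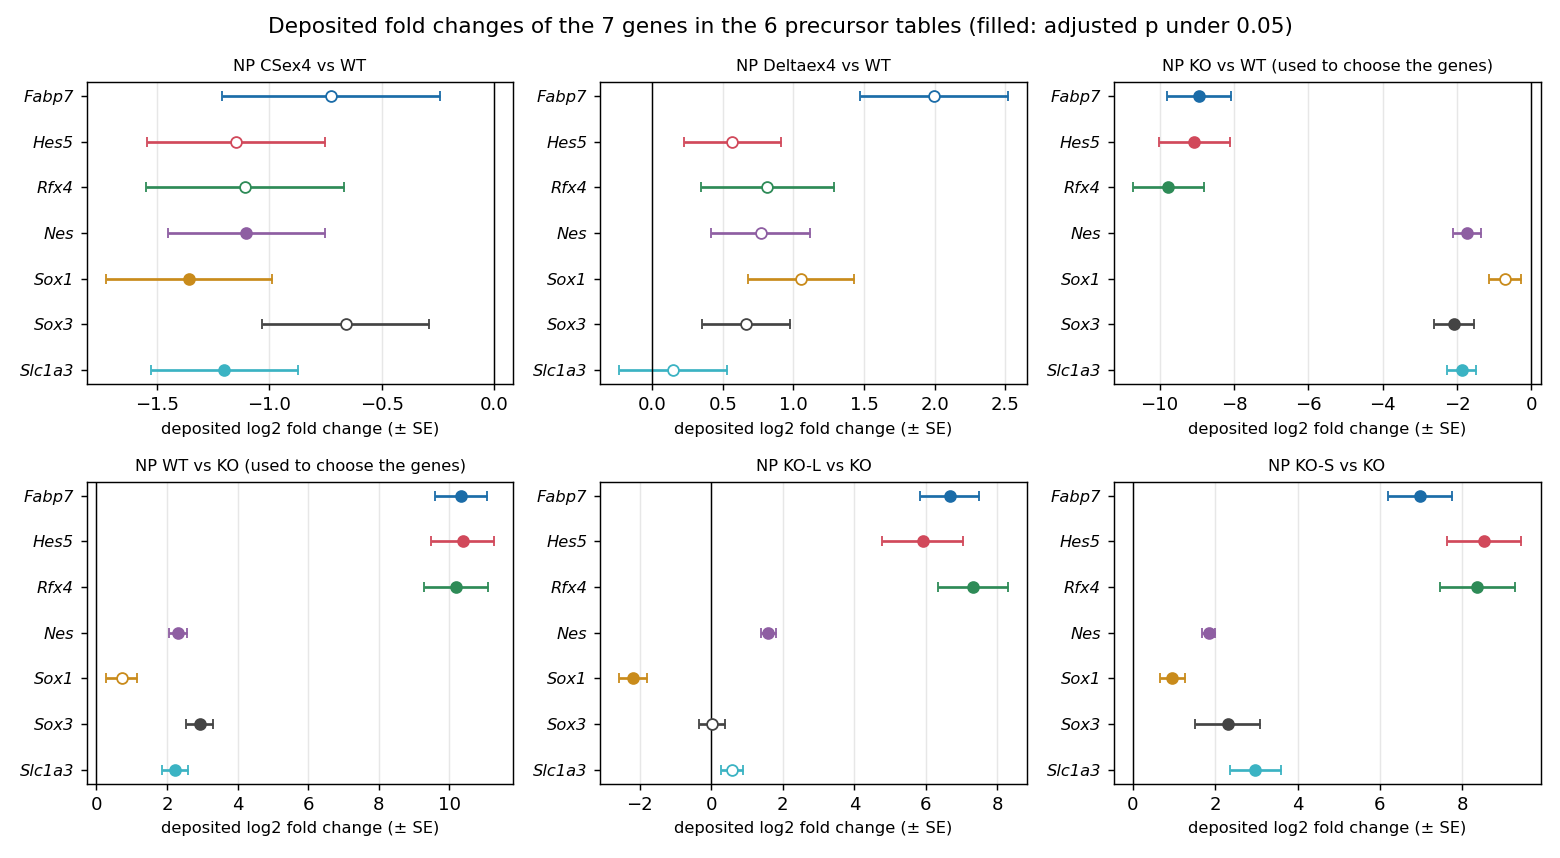
The authors' deposited log2 fold changes (horizontal axis, bars are SE) of the 7 genes in the 6 neural precursor tables; filled marks have an adjusted p under 0.05. In KO-L vs KO, Fabp7, Hes5, Rfx4 and Nes lie above 0 and Sox1 lies at -2.18, while in KO-S vs KO all 7 lie above 0.

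Both isoforms were then compared with KO. These tables share the KO libraries that chose the genes, so a rise is partly fixed by that choice, and the counts called are given as a description. In the authors' deposited table KO-L against KO, 4 of the 7 genes were called higher and 1 lower, where 24.7% of all genes were called (10.9% higher, 13.8% lower). In the authors' deposited table KO-S against KO all 7 were called higher, where 34.5% were called (16.4% higher). The members' median log2 fold change was 1.60 with KO-L and 2.97 with KO-S, beside 0.0051 and 0.0026 over all genes tested.

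Fabp7 came back to a low level with either isoform. It reached 201 and 328 normalised reads with KO-L and 311 and 349 with KO-S, and the groups overlapped. Against the 5 KO reads these were ratios of 99.02 (95% Poisson interval 42.4 to 305) and 124 (52.9 to 381), which cover counting error only. Against WT they were 10.1% and 12.7% of the mean over 4 libraries, below every WT library.

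Hes5 and Rfx4 also returned in part. Hes5 rose to 88.3 and 103 normalised reads with the long isoform and to 549 and 638 with the short one, ratios to KO of 59.7 (20.4 to 290) and 371 (127 to 1797). Those levels were 6.43% and 39.9% of the WT mean. Rfx4 rose to 273 and 228 with the long isoform and to 529 and 526 with the short one, ratios of 157 (53.6 to 760) and 330 (113 to 1598) and 15.3% and 32.1% of the WT mean. For both transcription factors each KO-S library was above each KO-L library. In limma-voom on the recovered reads, an unpaired fit added after the data were seen, Fabp7, Hes5 and Rfx4 did not pass in KO-L against KO (adjusted p = 0.165, 0.147 and 0.0615), nor did Fabp7 and Sox1 in KO-S against KO (adjusted p = 0.123 and 0.0689). It called 1 member higher and 1 lower in KO-L against KO, where 23.8% of all genes were called (9.83% higher, 14.0% lower), and 5 higher in KO-S against KO, where 28.0% were called (12.3% higher). Without library a of WT pair 1 all 3 passed in KO-L against KO (adjusted p = 2.37e-04, 0.0427 and 1.08e-04). That library is in neither group and enters only through the shared spread: the members' median was 1.59 with and without it. The calls in KO-L against KO did not hold without KO library b or without KO-L library b. There the members' median was 1.55 and 1.40, with 1 library left in the group. Without KO library a, KO-S library a or KO-S library b, 2 members were called in KO-S against KO.

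Nes, of the 7 genes, was nearest to its WT mean in KO-L. It was at 4829 and 6345 normalised reads with KO-L and 6691 and 6433 with KO-S, 71.6% and 84.1% of the WT mean, above library a of WT pair 1 (4008) but below the other 3 WT libraries (8627 to 9399). The authors' deposited tables gave 1.60 ± 0.21 (adjusted p = 3.90e-13) and 1.84 ± 0.16 (adjusted p = 1.54e-28).

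Sox1, Sox3 and Slc1a3 stood at separate levels in the 2 rescues. Sox1 stood at 92.5 and 112 normalised reads in KO-L, below both KO libraries, and at 889 and 910 in KO-S, inside the WT range. Its deposited change in the authors' tables was -2.18 ± 0.38 with KO-L (adjusted p = 1.68e-07) and 0.96 ± 0.30 with KO-S (adjusted p = 0.00563). So the SoxB1 gene least changed in KO was the lowest of the 6 groups in KO-L, at 13.3% of the WT mean, and 116.7% of it in KO-S.

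Sox3 was at 436 and 562 normalised reads in KO-L, inside the KO range of 259 to 903, and at 2320 and 2455 in KO-S, above library a of WT pair 1 (1378) but below the other 3 WT libraries (3061 to 3730). The authors' deposited values were 0.03 ± 0.36 (adjusted p = 0.977) and 2.30 ± 0.79 (adjusted p = 0.0131). Slc1a3 was at 800 and 930 in KO-L, overlapping KO, and at 4752 and 4292 in KO-S, above all 4 WT libraries and at 186.8% of their mean. Its deposited values in the authors' tables were 0.58 ± 0.30 (adjusted p = 0.150) and 2.97 ± 0.62 (adjusted p = 1.26e-05).

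The isoforms were also compared directly, a difference in which the KO libraries cancel. Taking the difference of the 2 fold changes in the authors' deposited tables, with an SE that counts the shared libraries in both and so errs high, 2 of 7 genes were higher in KO-S than in KO-L after Benjamini-Hochberg adjustment over 20741 genes, of which 7.03% were called (3.91% higher). They were Sox1, by 3.14 ± 0.48 (log2 ± SE; adjusted p = 1.19e-08), and Slc1a3, by 2.39 ± 0.68 (adjusted p = 0.0104). Sox3 (2.28, 95% interval 0.58 to 3.97, adjusted p = 0.0964) and Hes5 (2.62, -0.21 to 5.44, adjusted p = 0.395) did not pass. The intervals of Nes (-0.27 to 0.76), Fabp7 (-1.91 to 2.51) and Rfx4 (-1.55 to 3.66) included 0, and those of Fabp7 and Rfx4 also allow several-fold differences either way or upward.

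The limma-voom fit took in 16806 genes in all 14 libraries. It called 3 of the 7 higher in KO-S than in KO-L, where 18.1% of all genes were called (8.87% higher): Sox1 by 3.14 (95% interval 1.92 to 4.37, adjusted p = 0.00504), Slc1a3 by 2.39 (1.67 to 3.12, adjusted p = 0.00159) and Sox3 by 2.28 (0.87 to 3.69, adjusted p = 0.0329). Without library a of WT pair 1, which enters only through the shared spread, the count was 5, Hes5 (2.63, adjusted p = 0.0129) and Rfx4 (1.07, adjusted p = 0.00461) being added. Without KO-L library a it was 1.

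Set against WT in the same limma-voom fit, 6 of the 7 genes were lower in KO-L, where 37.3% of all genes were called (17.9% lower). The differences ran from -3.78 for Hes5 (adjusted p = 0.0115) to -1.48 for Slc1a3 (adjusted p = 0.00398), with Nes at -0.42 (95% interval -1.07 to 0.23, adjusted p = 0.278). Without library a of WT pair 1 all 7, Nes included, were called lower in KO-L, where 4335 of 16791 genes were called lower. Leaving out KO-L library a or b left 1 and 2 genes called. In KO-S against WT, 1 of the 7 was called, Slc1a3 higher by 0.92 (adjusted p = 0.0436), where 8.31% were called (5.84% higher). That call was lost without any single CSex4, KO-L or KO-S library and without library b of either WT pair. Without library a of WT pair 1, Fabp7 (-3.32, adjusted p = 8.55e-06), Rfx4 (-1.92, adjusted p = 2.29e-05), Hes5 (-1.55, adjusted p = 0.00830) and Nes (-0.47, adjusted p = 0.0139) were lower in KO-S as well, making 5 called. The WT libraries here include those used to choose the genes, and a library left alone in its group is assumed to vary like the others.

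Markers of other cell types moved with these groups. Pluripotency markers (8 of 9 genes with reads recovered, none at 0) summed to 16422 and 23861 normalised reads with KO-L, 3732 and 4214 with KO-S, 6103 and 12390 in KO and 2145 to 9694 in WT. In the deposited tables of the authors, 6 of 9 were called higher and 1 lower in KO-L against KO, among them Nanog (2.93 ± 0.82, adjusted p = 0.00240), and 6 were called lower and 0 higher in KO-S against KO, among them Dppa3 (-3.04 ± 0.64, adjusted p = 1.90e-05). Neuron markers (8 of 9 genes, none at 0) summed to 1797 and 1849 in KO, 5894 to 7725 with KO-L and 9932 to 11495 with KO-S. The epithelial genes Krt8 and Cdh1 were called lower with either isoform in the authors' deposited tables (Krt8 -2.35 ± 0.18, adjusted p = 2.24e-37, and -0.35 ± 0.14, adjusted p = 0.0471). The part of these cells in the members' values was not tested.

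**Figure D3:**
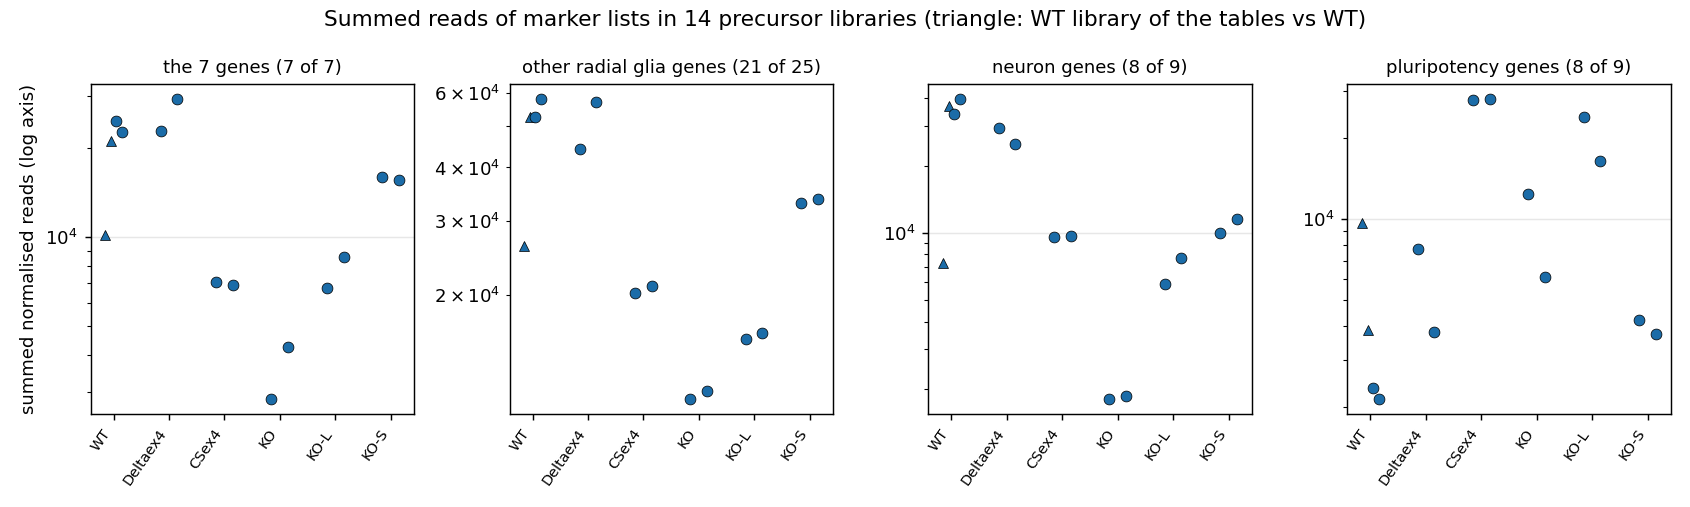
Summed normalised reads (log axis) of the marker lists in the 14 neural precursor libraries by group; triangles are WT pair 1, and each panel gives how many listed genes had reads recovered. Pluripotency sums are highest in CSex4 (27631 and 28010) and KO-L (16422 and 23861).

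The other radial glia and progenitor genes were read from a list of 25, chosen by role, with earlier results of these data already known. In the deposited tables of the authors, 11 were called higher and 4 lower in KO-L against KO, and 15 higher and 2 lower in KO-S against KO. Over all genes the shares were 10.9% higher and 13.8% lower, and 16.4% higher and 18.0% lower. The list's median log2 fold change was 0.31 and 1.07, beside 0.0051 and 0.0026 over all genes. Sox2, a SoxB1 factor that pluripotent cells also need, rose in the authors' deposited tables with both isoforms (2.31 ± 0.22, adjusted p = 3.75e-24, and 2.23 ± 0.22, adjusted p = 3.33e-22). Pax6, a transcription factor of forebrain and spinal cord progenitors, was at 330.3 and 307.8 normalised reads in KO, 354.2 and 440.7 with KO-L, 2759 and 2868 with KO-S, and 1855 to 4237 in WT. Its rise in KO-S against KO in the authors' deposited table was 3.14 ± 0.20 (adjusted p = 2.61e-54). The neural POU factors Pou3f2 (4.26 ± 0.25, adjusted p = 4.56e-62) and Pou3f3 (3.48 ± 0.24, adjusted p = 4.96e-44) rose in the same deposited table of the authors, and Hopx fell in KO-L against KO (-3.53 ± 0.34, adjusted p = 6.24e-24).

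In the limma-voom comparison of KO-S with KO-L, 9 of the 23 listed genes with enough reads were higher and 1 lower. Over all genes 18.1% were called in that comparison (8.87% higher, 9.28% lower). Zbtb16 was higher by 3.08 (adjusted p = 0.00241), Pax6 by 2.84 (adjusted p = 0.00494) and Pou3f2 by 2.10 (adjusted p = 0.0463), and the 1 lower gene was Tnc, an extracellular matrix protein. The list's median difference was 1.07, beside 0.02 over all genes.

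Notch pathway genes were read in order, beside 10.9% of all genes higher with KO-L and 16.4% higher with KO-S. Of 5 ligands, the authors' deposited tables called 3 higher and 1 lower in KO-L against KO and 3 higher in KO-S against KO. Dll1, the main progenitor-zone ligand, was at 82.84 and 119.9 normalised reads in KO, 187.1 and 291.7 with KO-L, 782.4 and 736.1 with KO-S and 688.5 to 2661 in WT. Its deposited changes in the authors' tables were 1.23 ± 0.43 (adjusted p = 0.0217) with KO-L and 2.92 ± 0.31 (adjusted p = 1.69e-19) with KO-S. Dll3, a divergent ligand, rose with both (2.68 ± 0.47, adjusted p = 2.30e-07, and 3.77 ± 0.37, adjusted p = 3.96e-22, in the authors' deposited tables), and Dll4 rose with KO-L (2.07 ± 0.47, adjusted p = 1.07e-04).

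Of 4 receptors, 2 rose with KO-L and 3 with KO-S in the authors' deposited tables. Notch4, best known from vessels, gave 3.65 ± 0.42 with KO-L (adjusted p = 1.83e-16) and 1.65 ± 0.61 with KO-S (adjusted p = 0.0229). Of 8 modulators, 2 rose with KO-L and 5 with KO-S. The Fringe glycosyltransferase Mfng rose in both of the authors' deposited tables (3.29 ± 0.61, adjusted p = 7.87e-07, and 4.38 ± 0.47, adjusted p = 2.12e-19), and Lfng was called in the KO-S table (1.80 ± 0.35, adjusted p = 3.03e-06).

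Of 6 further targets, 2 rose with KO-L and 4 with KO-S in the authors' deposited tables. Hey1 was at 140.4 and 282.9 normalised reads in KO, 1012 and 1169 with KO-L and 805.9 and 764.7 with KO-S, so this repressor was above its WT range of 433.5 to 837.4 in the group in which Hes5 stood at 6.43% of WT. Hes1, the Hes repressor of many tissues, was at 1650 and 2017 in KO and at 1143 to 1498 in WT, with both KO libraries above WT. In limma-voom Heyl was lower in KO-S than in KO-L (-0.87, adjusted p = 0.0482). Hes3, a Hes repressor of the midbrain and hindbrain, had 0 reads in both KO libraries and 28.38 and 27.31 normalised reads in KO-L.

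Relatives of the members moved in both directions. In the authors' deposited tables, Slc1a2, the other glial glutamate transporter, rose with KO-L (2.91 ± 0.41, adjusted p = 2.40e-11) and KO-S (3.56 ± 0.34, adjusted p = 3.22e-23), and the neuronal and epithelial transporter Slc1a1 fell (-2.42 ± 0.44, adjusted p = 5.06e-07, and -2.58 ± 0.48, adjusted p = 7.82e-07). Fabp3, a muscle and heart fatty acid-binding protein, fell in both deposited tables of the authors (-1.50 ± 0.24, adjusted p = 7.63e-09, and -2.26 ± 0.16, adjusted p = 3.92e-44), where Fabp7 rose. Fabp4, of fat and endothelium, rose in KO-L in the authors' deposited table (6.17 ± 0.97, adjusted p = 3.48e-09). Rfx3, a ciliary RFX factor, rose in KO-S (1.48 ± 0.23, adjusted p = 2.34e-09) and Rfx6, of gut and pancreas endoderm, fell in KO-L (-2.69 ± 0.47, adjusted p = 2.25e-07) in the authors' deposited tables. Of the intermediate filaments, the neuronal Ina rose in both of the authors' deposited tables (3.19 ± 0.28, adjusted p = 2.73e-27, and 3.74 ± 0.24, adjusted p = 4.37e-51).

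The exon 4 lines change the exon in the endogenous gene. In CSex4 the total Suz12 transcript was also above WT, and its part in the members' values was not tested. Where the exon 4 lines are set against WT, the WT libraries also stand in the KO tables that chose the genes. A lower value than WT is therefore partly favoured by that choice, and such counts are a description. In CSex4, all 7 genes had a negative fold change, and 3 were called lower in the authors' deposited table, where 5.53% of all genes were called (1.45% lower). Sox1 was at 289 and 300 normalised reads, below all 4 WT libraries (566 to 1006), with a deposited change in the authors' table of -1.36 ± 0.37 (adjusted p = 0.00753). Slc1a3 was at 941 and 894 against 1897 to 3173 in WT (-1.20 ± 0.33, adjusted p = 0.00782, in the authors' deposited table). Nes was at 2919 and 2730 against 4008 to 9399 (-1.10 ± 0.35, adjusted p = 0.0335, in the authors' deposited table).

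For Hes5 (353 and 366 normalised reads) and Sox3 (1267 and 1334) the CSex4 libraries also lay below all WT libraries, without a call in the authors' deposited table (-1.15 ± 0.40, adjusted p = 0.0639, and -0.66 ± 0.37, adjusted p = 0.407). Fabp7 (737 and 817) overlapped WT through library a of pair 1 alone, as did Rfx4 (551 and 477), at -0.72 ± 0.48 (adjusted p = 0.548) and -1.11 ± 0.44 (adjusted p = 0.138) in the authors' deposited table. The members' median was -1.11, beside -0.04 over all genes tested. CSex4 levels were 24.1% (Hes5) to 43.9% (Sox3) of the WT mean.

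With all 4 WT libraries, limma-voom called 4 of the 7 lower in CSex4, where 26.3% of all genes were called (11.6% lower): Slc1a3 (-1.38, adjusted p = 0.00756), Nes (-1.39, adjusted p = 0.00959), Sox1 (-1.38, adjusted p = 0.0233) and Hes5 (-1.87, adjusted p = 0.0499). Without library a of WT pair 1, all 7 were called lower, Fabp7 at -2.08 (adjusted p = 1.30e-05) and Rfx4 at -1.95 (adjusted p = 1.33e-05). With WT pair 1 only, or without either CSex4 library, limma-voom called 0 of the 7 (4, 3 and 3 at an unadjusted p under 0.05).

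Of the other 25 radial glia genes, 9 were called lower and 0 higher in CSex4 in the authors' deposited table (median -0.91), with Metrn (-1.49 ± 0.36, adjusted p = 0.00132), Sox9 (-1.41 ± 0.38, adjusted p = 0.00598) and Pax6 (-1.33 ± 0.33, adjusted p = 0.00192) among them. Of the 5 Notch ligands, 4 receptors and 8 modulators, 0 were called in the authors' deposited DESeq2 table (2, 1 and 1 at an unadjusted p under 0.05), and of the 6 targets 1 was, Dtx4 (-1.26 ± 0.40, adjusted p = 0.0318). Sox2 stood at 5565 and 5775 normalised reads in CSex4, above its WT range of 3665 to 5488. Pluripotency markers summed to 27631 and 28010 in CSex4, above every WT library, and 8 of 9 were called higher in the authors' deposited table, among them Nanog (2.79 ± 0.35, adjusted p = 5.54e-12) and Pou5f1 (2.50 ± 0.37, adjusted p = 5.75e-09). Neuron markers summed to 9558 and 9698, above library a of WT pair 1 (7347) and below the other 3 WT libraries (34240 to 39926). The part of these cells in the members' lower levels was not tested.

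In Deltaex4 all 7 genes had a positive fold change and none was called in the authors' deposited table, where 0.0809% of all genes were called; 4 had an unadjusted p under 0.05. Fabp7 was at 5382 and 4834 normalised reads, above all 4 WT libraries (563 to 3652), at 1.99 ± 0.52 (adjusted p = 0.0998) in the authors' deposited table. That fold change is set against WT pair 1 and, by the table's name, comes from a paired fit, so it need not equal a ratio of group means. Sox1 was at 1237 and 1972, also above all WT libraries (566 to 1006), at 1.05 ± 0.37 (adjusted p = 0.895). Nes, at 9475 and 11237, exceeded WT by a small margin (0.77 ± 0.35, adjusted p = 1.00). Hes5 (818 and 1695), Rfx4 (1796 and 2098), Sox3 (2313 and 4580) and Slc1a3 (1805 and 3029) overlapped WT.

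The Deltaex4 values shifted with library a of WT pair 1. In limma-voom the members' median difference was 0.43 with it and -0.04 without it. The deposited fold changes, positive for all 7 genes, are set against WT pair 1, which holds this library. Fabp7 and Hes5 were among the genes that shifted, and Sox1 hardly did. With all 4 WT libraries limma-voom also called 0 of the 7 (4 of all genes, 0.0238%, and 2 of the 7 at an unadjusted p under 0.05). There the Fabp7 difference was 1.27 with library a and 0.64 without it, and that of Hes5 was -0.17 and -0.56. Sox1 was at 1.02 with it (95% interval 0.44 to 1.60) and 1.03 without it (0.40 to 1.66), with adjusted p = 0.491 and 0.269. Of the 25 other radial glia genes 0 were called in the authors' deposited DESeq2 table, with 6 at an unadjusted p under 0.05, and of the 5 Notch ligands, 4 receptors, 8 modulators and 6 targets 0 were called, with 0, 0, 0 and 0 at that level.

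The 2 exon 4 lines were compared directly, which takes the WT libraries out. By the difference of the fold changes in the authors' deposited tables, 3 of the 7 genes were lower in CSex4 than in Deltaex4, where 1.22% of 20608 genes were called (0.315% lower): Sox1 by -2.41 ± 0.53 (adjusted p = 0.00116), Fabp7 by -2.72 ± 0.71 (adjusted p = 0.0178) and Nes by -1.87 ± 0.50 (adjusted p = 0.0194). Hes5 (-1.71, adjusted p = 0.0745), Rfx4 (-1.92, adjusted p = 0.132), Sox3 (-1.32, adjusted p = 0.218) and Slc1a3 (-1.35, adjusted p = 0.235) did not pass. All 7 CSex4 levels lay below both Deltaex4 levels.

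Limma-voom called 5 of the 7 lower in CSex4 than in Deltaex4, where 18.8% were called (9.02% lower), adding Rfx4 (-1.91, adjusted p = 0.0478) and Slc1a3 (-1.34, adjusted p = 0.0220), with Hes5 (-1.70, 95% interval -3.23 to -0.17, adjusted p = 0.104) and Sox3 (-1.32, -2.45 to -0.18, adjusted p = 0.0922) outside. The count was 7 without library a of WT pair 1, 3 without Deltaex4 library a, and 0 in limma-voom without either CSex4 library or Deltaex4 library b (5 at an unadjusted p under 0.05 each time). Of the other radial glia genes with enough reads, 13 of 23 were lower and 1 higher. Pluripotency markers were higher in 7 of 9, and their sums were 27631 to 28010 in CSex4 against 3802 to 7771 in Deltaex4.

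**Figure D4:**
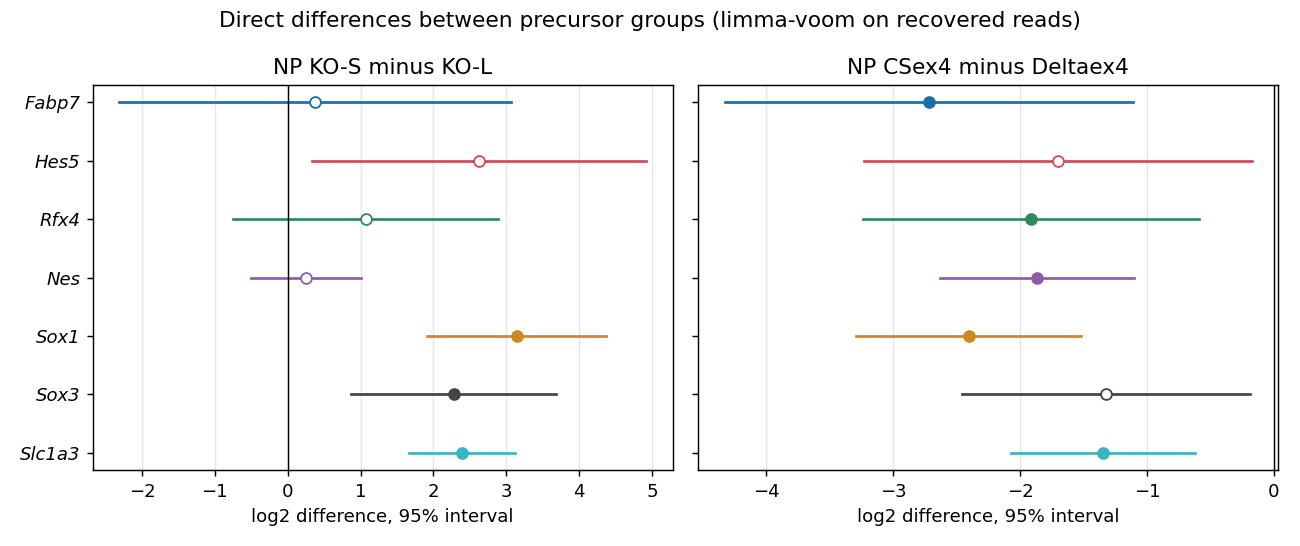
Log2 differences (horizontal axis, bars are 95% intervals) of the 7 genes between neural precursor groups, from limma-voom on recovered reads; filled marks have an adjusted p under 0.05. Sox1 lies at 3.14 in KO-S minus KO-L and at -2.40 in CSex4 minus Deltaex4.

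The order of the 6 NP groups by mean level differed between genes. Deltaex4 was first for Fabp7, Nes and Sox1, without overlap, and for Rfx4 and Sox3, where its libraries overlapped those of WT; WT was first for Hes5, overlapping Deltaex4, and KO-S was first for Slc1a3, without overlap. KO was last for Fabp7, Hes5, Rfx4, Nes and Slc1a3, and KO-L was last for Sox1 and Sox3. For Sox3 the libraries of KO and KO-L overlapped, for Slc1a3 those of CSex4, KO-L and KO did so in turn, and for Sox1 those of KO-S and WT and of WT and KO did. For Fabp7, KO-S and KO-L could not be ordered, and for Rfx4, KO-S and CSex4 could not.

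In ESC, Fabp7 and Hes5 were barely transcribed, and the other members ranged from low to high read counts. Fabp7 had 0 to 4 reads and Hes5 0 to 6 reads in each of the 18 libraries, and 6 of the 7 deposited ESC tables give neither an adjusted p. Rfx4 had 8 to 82 reads, Sox3 7 to 186 and Sox1 26 to 326. Nes ran from 173 to 11121 reads and Slc1a3 from 341 to 982. At such counts a fold change of Fabp7 or Hes5 between ESC groups is not detectable.

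**Figure D5:**
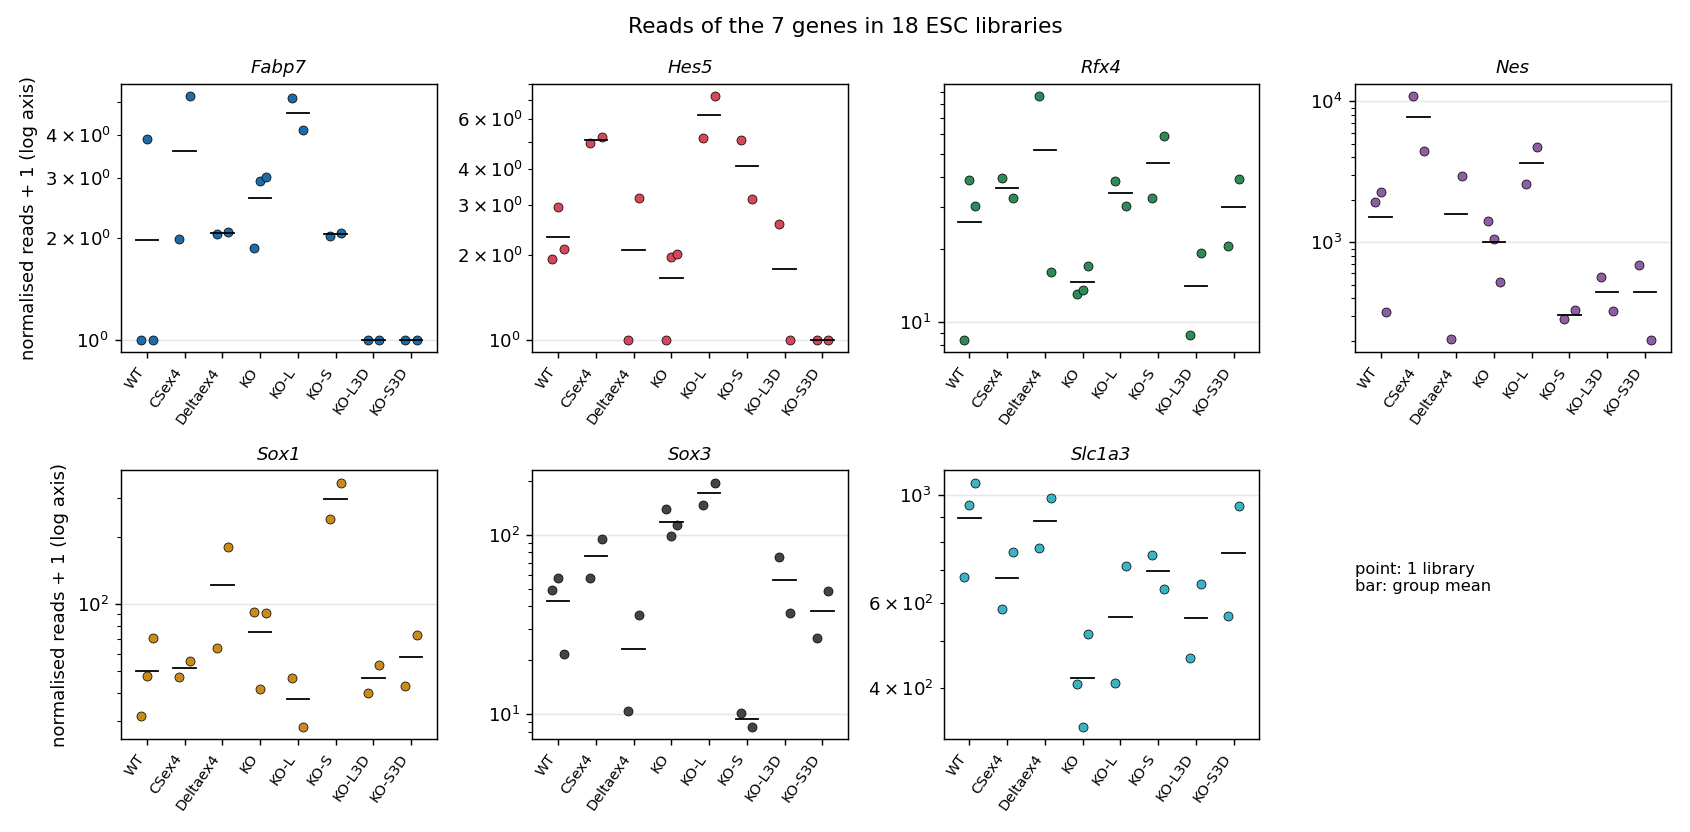
Normalised reads plus 1 (log axis) of the 7 genes in each of the 18 ESC libraries by group; each mark is a library, on a scale separate from that of the precursors. Sox1 lies highest in KO-S (241 and 349), Sox3 lowest there (9.21 and 7.50), and the 3 WT marks of Nes span 317 to 2289.

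Sox1 and Sox3 moved in different rescues in ESC. Sox1 was at 30.5, 46.5 and 69.7 normalised reads in WT and at 241 and 349 in KO-S, without overlap. The authors' deposited table gave 2.35 ± 0.52 (adjusted p = 3.06e-04), the 1 member called there, where 7.91% of all genes were called (4.28% higher). Sox3 was at 48.1, 56.2 and 20.7 in WT and at 9.21 and 7.50 in KO-S, below WT but without a call in the authors' deposited table (-2.04 ± 1.04, adjusted p = 0.259).

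Sox3 was at 137, 98.1 and 113 normalised reads in ESC KO and at 145 and 194 in KO-L, in both cases above all WT libraries. The authors' deposited tables gave 1.56 ± 0.43 (adjusted p = 0.00284) and 2.28 ± 0.69 (adjusted p = 0.0448). The latter was the 1 member called in KO-L, where 2.23% were called (1.46% higher). In KO, where 18.3% were called (11.0% higher, 7.27% lower), Slc1a3 was called lower (-1.10 ± 0.26, adjusted p = 3.59e-04, in the authors' deposited table), with levels of 406, 331 and 515 against 678, 952 and 1061 in WT. Sox3 in KO thus lay above WT in ESC and below WT in NP; the scales differ and the difference was not tested.

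No member was called in the other 4 ESC tables of the authors' deposit: CSex4 (2.41% of all genes called), Deltaex4 (0 of 20263 genes), KO-L3D (18.3%) and KO-S3D (3.23%). At an unadjusted p under 0.05 there were 1, 0, 2 and 0 members. Nes in CSex4 was at 10953 and 4430 normalised reads, above the WT libraries at 1927, 2289 and 317 (3.04 ± 1.51, adjusted p = 0.414, in the authors' deposited table). The same 3 WT libraries stand in all 7 ESC tables, but not with equal weight. Outside the KO table, genes with a single read in WT library a, listed first above, had small deposited fold changes (-0.0052 in CSex4, 0.032 in KO-S, -0.23 in KO-L3D). Single reads in the other WT libraries gave -1.28 and -1.31 in CSex4. Outside KO, the deposited ESC fold changes thus rest mainly on those other WT libraries and not on all 3 printed levels.

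The 3D mutation was compared with each unmutated rescue by the difference of fold changes in the authors' deposited tables. The Suz12 transcript also stood at unlike levels within each pair. Its deposited change against WT in the authors' tables was -1.05 ± 0.28 in KO-L and -1.85 ± 0.28 in KO-L3D. In KO-S it was -0.83 ± 0.27 and in KO-S3D -0.06 ± 0.42 (log2 ± SE). Its part in the members' differences was not tested. None of the 7 genes passed for KO-L3D against KO-L (2.84% of all genes called) or for KO-S3D against KO-S (0.440% called), and at an unadjusted p under 0.05 there was 1 in each: Nes, -3.05 (95% interval -5.88 to -0.22, adjusted p = 0.325), and Sox1, -2.39 (-4.45 to -0.33, adjusted p = 0.800). Sox1 in KO-S3D was at 42.2 and 71.9 normalised reads, near WT, against 241 and 349 in KO-S. With the variance of the difference halved as an allowance for the shared WT libraries, 1 member passed in each pair, Nes (adjusted p = 0.0263) and Sox1 (adjusted p = 0.0451).

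By Euclidean distance between log2 fold changes over the 13 comparisons, among 13230 genes, the genes nearest to the median profile of the 7 were Thbs3 (distance 1.78), Fndc5 (1.91), Plxna4 (2.12), Hmgcs1 (2.16) and Tshz3 (2.17). The members themselves lay farther from their own median: Nes at 3.11, Slc1a3 at 3.67, Sox3 at 4.00, Sox1 at 6.28, Fabp7 at 12.5, Hes5 at 12.8 and Rfx4 at 13.4. These distances include the tables that chose the genes and, for Fabp7 and Hes5, ESC fold changes from 0 to 6 reads, so they are a description only.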

How the data were processed

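The authors' 13 deposited tables hold, per gene, a mean normalised signal (baseMean), a log2 fold change with its SE, a Wald statistic (a score) and a p-value with its adjusted p-value, in the layout of DESeq2, which the submitters' processing notes name with Bowtie, TopHat, DiffBind and the builds mm10 and dm3; versions and settings are not given in the sources used here. The 2 deposited region lists carry a score whose meaning is not stated. The threshold for a call was 0.05 on the adjusted p-value that the authors deposited. The tables' names call these statistics paired. The design foresaw a count test if counts were present; the deposited test took its place.

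A baseMean is a mean of whole reads divided by size factors. From single-read steps the size factors, and then the whole reads of each library, were solved exactly; 21889 of 21943 NP genes tried had 1 solution. Libraries were linked across tables by identical reads, and a library's group follows from the tables that hold it and from the sign of the deposited fold change of genes with a single read. Tested on simulated data made like NP KO vs WT, 246 of 300 genes gave a single solution from 4 libraries, all right.

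limma 3.58.1 (voom, R 4.3.3) was run on 16806 genes with at least 10 normalised reads in at least 2 of the 14 NP libraries. On simulated data for CSex4 minus WT (15822 genes) it recovered 44.8% of 2-fold and 100% of 4-fold changes, with 5.23% of calls false. The simulation gave every gene the same dispersion, changed few genes, none of them at low level, and held no WT library apart from the others. Its rates need not hold for the real libraries. Differences of deposited fold changes were divided by the root of the summed squared SEs, with Benjamini-Hochberg adjustment.

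The members and gene lists were chosen with earlier results of these data known. Named genes are the 7 members, Suz12, up to 4 called genes of each list and NP comparison by size of change, and the 5 nearest profiles; list genes given with levels or from limma-voom beyond that rule were chosen after their values were seen. Alternatives were the threshold, the set of genes adjusted over, a signal minimum of 10, the other WT pair, a smaller variance for shared libraries and leaving out each library. Python 3.11.15, numpy 2.4.6, pandas 2.3.3 and scipy 1.17.1 were used. ChIP samples other than the region lists were not analysed here.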

Additional observations from a re-analysis of the deposited data

Results flagged for a closer look

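Nes in the 4 neural precursor WT libraries had 1 library, a of pair 1, far below the others, with a gap of 0.857 of the whole range. That is above Dixon's critical value for 4 samples, and chance alone flags about 1 group in 20. Neural precursors with the short and the long isoform differed in Sox1, by 3.14, and in Slc1a3, by 2.39 (log2, KO-S minus KO-L). The exon 4 lines differed in Sox1 by -2.41, in Nes by -1.87 and in Fabp7 by -2.72 (log2, CSex4 minus Deltaex4). These were tested as differences of fold changes in the authors' deposited tables.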

How the results depend on the processing

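Of 199 alternative values, 160 were the same or moved little, and 39 moved. Counts of members were compared by size only, whichever genes were called. A median was taken as the same if it moved by less than the members' median SE. No paired analysis was possible because the recovered libraries carry no replicate number; the names of the deposited tables call their own fit paired, so a deposited fold change may be a mean of within-pair log ratios and differ from a ratio of group means. The limma-voom fit without a replicate block called 2 members in NP KO-L against KO in place of 5, 5 in KO-S against KO in place of 7, and 5 in CSex4 against Deltaex4 in place of 3. At an adjusted p under 0.01 the members called fell to 0 in ESC KO-L, to 1 in KO-S against KO-L and to 1 in CSex4 against Deltaex4, and under 0.1 they were 2 in ESC KO-L3D and 1 in NP Deltaex4. Adjusting over all genes with a p left 0 in ESC KO-L. With members of a mean signal of at least 10, the median moved from 1.08 to 0.070 in ESC CSex4 and from 1.80 to -0.0060 in ESC KO-L. The other WT pair moved the NP KO median from -2.08 to -2.93. Halving the variance of the difference gave 7 members in CSex4 against Deltaex4 and 1 in each ESC 3D pair. In limma-voom, WT pair 1 only gave 0 members in CSex4 and 0 in KO-S against WT, and WT pair 2 only gave 7 and 4, and 5 in KO-S against KO-L. Leaving out 1 library at a time gave 0 to 7 members for CSex4 against WT, 1 to 7 for KO-L against WT, 0 to 5 for KO-S against WT, 1 to 5 for KO-S against KO-L and 0 to 7 for CSex4 against Deltaex4. The cause of these moves was not tested. With 2 libraries in most groups, depth did not limit the NP values outside KO, and the 1 to 4 reads of Fabp7, Hes5 and Rfx4 in KO limit their ratios.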
